A study of Medicago truncatula with 15 samples.

Results

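Transcripts of 6 meristem identity loci of *Medicago truncatula* were followed in leaf and shoot apex libraries: the *FRUITFULL*-like genes *MtFULa* (Medtr2g461760), *MtFULb* (Medtr4g109830) and *MtFULc* (Medtr7g016630), the *APETALA1*-like genes *MtAP1* (Medtr8g066260) and *MtAP1b* (Medtr5g046790), and *MtLFY* (Medtr3g098560). The loci were chosen by name, as homologs of *FUL*, *AP1* and *LFY* of Arabidopsis, at a time when earlier results of these data were known. They made up 6 of the 50021 loci, and 7 of the 57124 transcripts, in the count table. All plants were of ecotype R108, received 3 weeks of vernalization and were grown in long days (VLD), and tissue was taken 4 h after dawn.

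The 15 libraries fell into 5 groups of 3 separately harvested pools. Fully expanded trifoliate leaves (2 plants a pool) came from 15-day-old plants of the *Mtsoc1a* single mutant and of the wild type (WT). Primary shoot apices (3 plants a pool) came from 83-day-old triple mutants edited in *MtSOC1a*, *MtSOC1b* and *MtSOC1c*, from 15-day-old *Mtsoc1a* plants and from 15-day-old WT plants. *Mtsoc1a* is line NF1705, with a *Tnt1* retrotransposon insertion in *MtSOC1a*. Whether the line carries other insertions is not stated. The triple mutant comes from 1 CRISPR-Cas9 line, which the labels call *Mtsoc1-4* and the article *Mtsoc1-2*, and the article states that its non-flowering segregants were sampled. Genotype and plant age changed together in this group, so they cannot be told apart in any comparison with it. Stem tissue taken with the apex is described in the labels for the triple mutant and in the article for the 15-day-old plants, so whether the groups were dissected alike is not clear. The labels describe the triple mutant libraries apart from the other 12, without saying whether they were prepared at another time.

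In eudicots, *AP1*, *FUL* and *LFY* encode transcription factors that turn a shoot meristem into one that makes flowers. *AP1* and *FUL* are MADS-box genes of one clade, and *LFY* is of a separate family. In the compound inflorescence of Medicago, *MtFULc* sets the identity of the secondary inflorescence meristem and *MtAP1* that of the floral meristem. *LFY* homologs act in floral meristems, and in Medicago *LFY* also acts in the young leaf primordium. The roles of *MtFULa*, *MtFULb* and *MtAP1b* are taken here only from their family. *SOC1*, another MADS-box gene, acts ahead of *AP1* and *LFY* in the floral transition of Arabidopsis.

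The primers that the study designed for these transcripts are given for the 4 loci on which the apex results turn, to fix which transcript each name stands for. They are written in full, with no base marked.
MtFULb forward: agagcacgcaaaactcaaggct
MtFULb reverse: agctctttgagacctaaaccatccaa
MtFULc forward: agggcaaggacattgcaggagca
MtFULc reverse: tggtggtagcacctctggctgacaa
MtAP1 forward: gcacaatgggagcacccaaacca
MtAP1 reverse: gcttcctcacggtaattgccaccca
MtLFY forward: cacgtggcaaaaagaacggt
MtLFY reverse: tcaccgcgttccttagcaat

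Levels are given as CPM, the counts of a transcript per 1000000 counts of its library, scaled between libraries by trimmed mean of M-values (TMM). Differences are log2 fold changes from edgeR's quasi-likelihood test. Their standard error (SE) was derived as the absolute log2 fold change over the square root of the test's F value. A call needed a change of at least 2-fold and an adjusted p, by the method of Benjamini and Hochberg over all transcripts tested, of at most 0.05. Library totals were 13224488 to 15891830 estimated counts in the triple mutant and 30574854 to 38896407 in the 12 libraries of 15-day-old plants. *MtSOC1a* transcript Medtr7g075870.1, disrupted in *Mtsoc1a*, spanned 0 to 0.679 CPM in *Mtsoc1a* apices, against 7.59 to 11.9 CPM in WT apices. In the triple mutant it spanned 11.6 to 14.7 CPM, and since the edits change its sequence, this level does not check the label. The summed level of 3 apex markers (*HDL*, *WOX9*, *TFL1c*) was 0 in all leaf libraries. It spanned 4.39 to 6.72 CPM in triple mutant apices, 9.67 to 17.7 CPM in *Mtsoc1a* apices and 5.58 to 14.0 CPM in WT apices, with 1 of the 3 at 0 throughout the triple mutant.

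**Figure D1:**
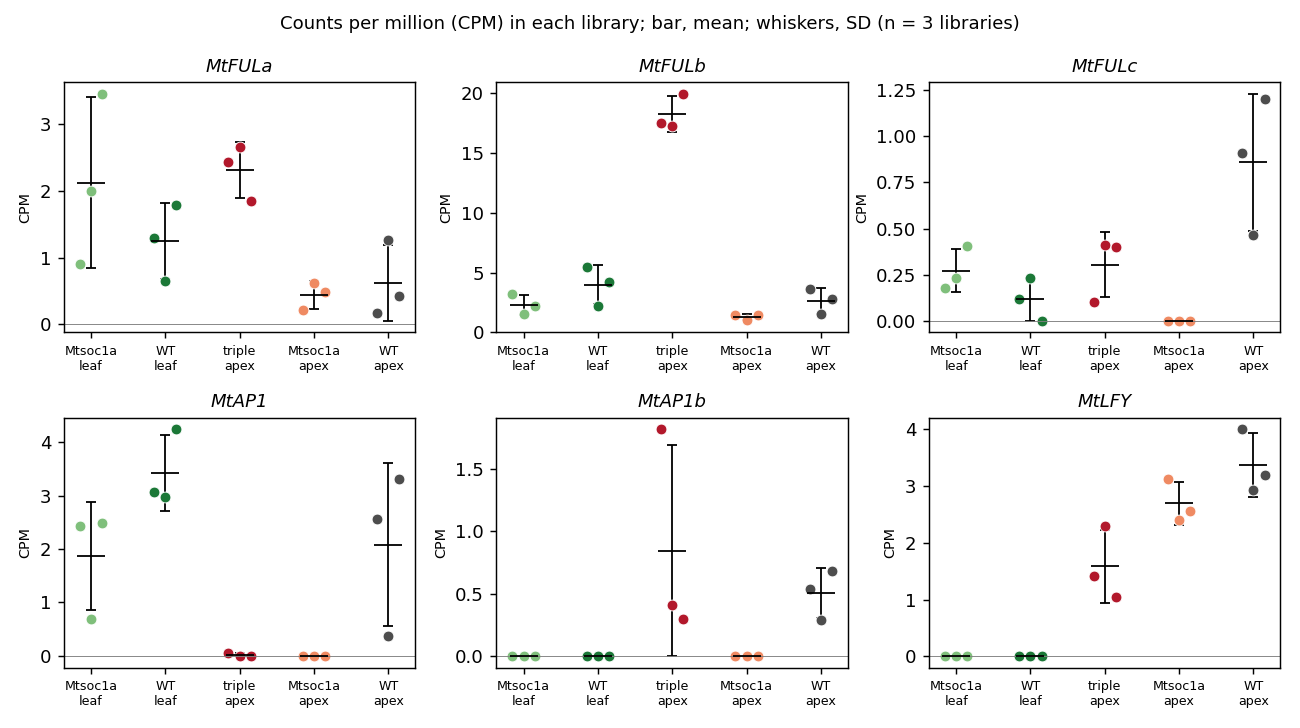
CPM (vertical axis) of each gene in each of the 15 libraries, as points, with the mean (bar) and SD (whiskers, n = 3) of each group along the horizontal axis. *MtFULb* stood at 17.3 to 19.98 CPM in the triple mutant, above all other libraries, and *MtFULc*, *MtAP1* and *MtAP1b* had 0 counts in all 3 *Mtsoc1a* apex libraries.

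Compared per length by the authors' mean TPM values, which also correct for transcript length, *MtFULb* was the highest of the 6 genes in triple mutant apices, at 30.7 TPM, followed by *MtFULa* transcript Medtr2g461760.1 at 6.41 TPM. *MtAP1b* (1.66 TPM), *MtLFY* (1.27 TPM), *MtFULc* (0.438 TPM) and *MtAP1* (0.0269 TPM) followed. In WT apices the 6 genes lay within a narrower range. *MtFULb* stood at 4.34 TPM, *MtAP1* at 3.16 TPM, *MtLFY* at 2.47 TPM, *MtFULa* at 1.83 TPM, *MtFULc* at 1.17 TPM and *MtAP1b* at 0.976 TPM. These are the authors' group values, given without a spread, so the order of neighbours was not tested.

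To ask which of these genes change when all *MtSOC1* genes are edited, triple mutant apices were compared with WT apices. *MtFULb* rose in the triple mutant, and *MtAP1* and *MtLFY* fell. The other 3 genes did not pass the test. Thus 3 of 6 tested genes were called, 1 higher and 2 lower, where 6.43% of the 25935 transcripts tested were called (1.60% higher and 4.83% lower).

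*MtFULb* stood at 17.5, 17.3 and 19.98 CPM in the triple mutant, against 3.63, 1.51 and 2.79 CPM in WT apices. The groups did not overlap, and every triple mutant library was above every WT library. The mean was 18.3 ± 1.49 CPM in the triple mutant and 2.64 ± 1.07 CPM in WT (SD, n = 3 each). The log2 fold change was 2.78 (SE 0.31, edgeR adjusted p = 0.001717), and the call was made in all 15 alternatives tried, at log2 fold changes of 2.49 to 3.09. The summed level of 24 photosynthesis genes, a list the study drew from the triple mutant libraries, also differed between these groups. It spanned 904 to 1669 CPM in the triple mutant and 240 to 396 CPM in WT, with 18 of the 24 called higher, and its part in the *MtFULb* result was not tested. In bulk tissue, fewer cells of a type and less RNA per cell cannot be told apart, here and in every comparison below.

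In the triple mutant *MtAP1*, the floral meristem identity gene, had 1, 0 and 0 counts, against 133, 17 and 140 counts in WT apices. WT replicate 2 was far below the other WT libraries, yet above each triple mutant library. Scaled for depth, the summed counts were 118-fold lower in the triple mutant (95% counting interval 21.1 to 4686), an interval that covers counting error only. The gene passed the filter on low counts only through WT apices. The edgeR adjusted p was 0.02037. The call ended when any 1 triple mutant library, WT replicate 1 or WT replicate 3 was left out (adjusted p 0.05826 to 0.07885), and was made in 10 of 15 alternatives.

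*MtLFY* stood at 1.42, 2.30 and 1.05 CPM in the triple mutant, against 4.00, 2.92 and 3.19 CPM in WT apices. All triple mutant libraries were below all WT libraries. The log2 fold change was -1.10 (SE 0.32, edgeR adjusted p = 0.04719). This call lay just inside the threshold and was made in 6 of 15 alternatives, with adjusted p values of 0.01573 to 0.1642 and log2 fold changes of -1.46 to -0.88. It was lost in 5 of the 6 fits that left 1 library out, all but the one without triple mutant replicate 2.

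*MtFULa* (Medtr2g461760.1) stood at 2.43, 2.65 and 1.84 CPM in the triple mutant, against 0.174, 1.26 and 0.425 CPM in WT apices. The groups did not overlap, but WT varied several-fold and the log2 fold change of 1.90 (SE 0.70) was not called (edgeR adjusted p = 0.1025). DESeq2, which called 6.36% of all transcripts, called it (adjusted p = 0.048), as did edgeR without WT replicate 2 (log2 fold change 2.92, adjusted p = 0.03368). The other transcript of the locus, Medtr2g461760.2, had at most 7 counts in any library and was not tested.

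In the triple mutant *MtFULc*, the secondary inflorescence gene, had 2, 7 and 8 counts, against 47, 21 and 51 counts in WT apices. At 0.101, 0.413 and 0.399 CPM the triple mutant libraries were below the WT libraries, at 0.907, 0.465 and 1.204 CPM. The log2 fold change of -1.50 (SE 0.80) was not called (edgeR adjusted p = 0.2606), nor in any of 15 alternatives. The gap between the highest triple mutant library and the lowest WT library was small beside the spread within each group.

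Counts of *MtAP1b* were 36, 7 and 6 in the triple mutant, against 28, 13 and 29 counts in WT apices. The groups overlapped (log2 fold change 0.73, SE 0.88, edgeR adjusted p = 0.641). Triple mutant replicate 1 alone set the sign of this value, which was -0.51 without it. Over the 6 genes, 2 had every triple mutant library above WT and 3 had every one below. Such separation was met by 18.0% and 20.5% of all transcripts tested. Of the 3 genes below WT, *MtFULc* and *MtAP1* passed the filter on low counts only with WT apices in the fit.

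**Figure D2:**
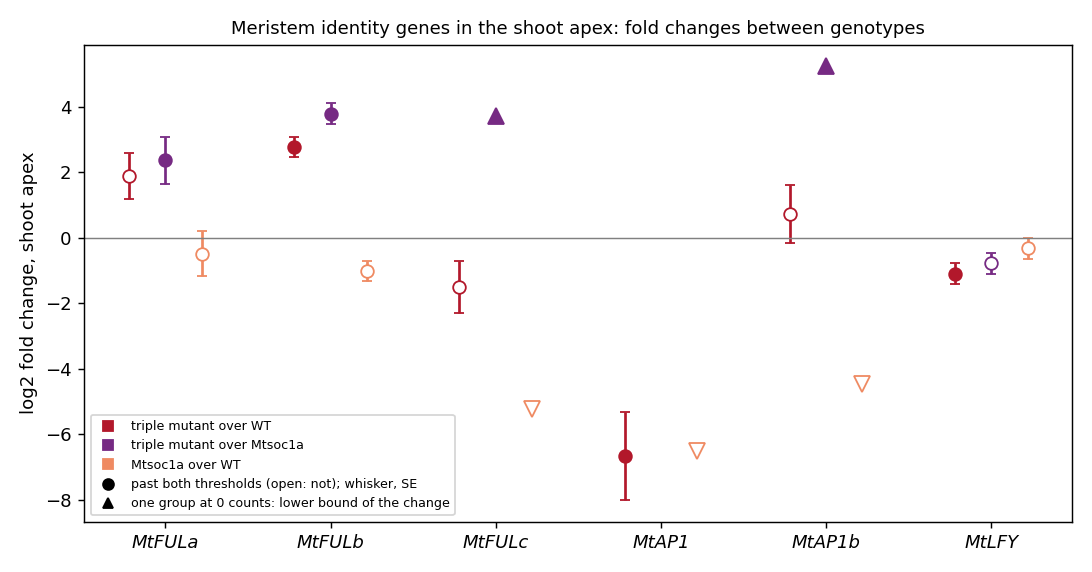
Log2 fold changes in the shoot apex (vertical axis) for the triple mutant over WT, the triple mutant over *Mtsoc1a* and *Mtsoc1a* over WT, as circles with SE whiskers. Filled symbols passed both thresholds, and triangles are lower bounds where 1 group had 0 counts. *MtFULb* was 2.78 above WT and 3.79 above *Mtsoc1a* in the triple mutant, and the triangles of *MtFULc* and *MtAP1b* point down for *Mtsoc1a* over WT and up for the triple mutant over *Mtsoc1a*.

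The *Mtsoc1a* single mutant was compared with WT in apices of the same age. The article describes moderately delayed flowering in this mutant, so the same age need not be the same stage. *MtSOC1b* was also lower in these apices, at a mean of 0.477 CPM against 2.73 CPM in WT. Its log2 fold change of -2.51 (SE 0.44) was not called (edgeR adjusted p = 0.1339), and its part in the results below was not tested. *MtFULc*, *MtAP1* and *MtAP1b* were at 0 counts in all 3 *Mtsoc1a* apex libraries. In WT apices *MtFULc* had 47, 21 and 51 counts, *MtAP1* 133, 17 and 140, and *MtAP1b* 28, 13 and 29. With a floor of 3 counts over the group, levels in *Mtsoc1a* were at least 37.4-fold lower for *MtFULc*, at least 91.1-fold lower for *MtAP1* and at least 22.0-fold lower for *MtAP1b*. These bounds set the floor against summed WT counts and leave out the spread between libraries. No *Mtsoc1a* apex library gave a read to any of these 3 genes, while every WT apex library did.

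Even so, edgeR called 0 of the 6 genes, where 0.0154% of all transcripts were called (4 in all). The adjusted p was 0.1339 for *MtFULc*, 0.1666 for *MtAP1* and 0.2236 for *MtAP1b*. At an unadjusted p under 0.05, 4 of the 6 passed, these and *MtFULb*, beside 10.1% of all transcripts. DESeq2 called *MtFULc* (adjusted p = 5.68e-05), *MtAP1* (1.329e-05) and *MtAP1b* (0.001427), where it called 0.998% of all transcripts. With counts summed to genes, edgeR called *MtFULc* (adjusted p = 0.02533) and *MtAP1* (0.03134), with 0.226% of genes called. The outcome for these 3 genes therefore changed with the tool, and for *MtFULc* and *MtAP1* also with the unit tested.

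*MtFULb* stood at 1.45, 1.01 and 1.45 CPM in *Mtsoc1a*, against 3.63, 1.51 and 2.79 CPM in WT. The groups did not overlap, by a small margin at WT replicate 2, and the log2 fold change of -1.02 (SE 0.30) was not called (edgeR adjusted p = 0.3682). With the 3 genes at 0, this made 4 of 6 genes with every *Mtsoc1a* library below WT, a pattern met by 8.63% of all transcripts. Those 3 genes, at 0 in *Mtsoc1a*, passed the filter on low counts only through other apex groups. Their number beside this share is therefore a description. *MtLFY* stood at 3.12, 2.40 and 2.55 CPM in *Mtsoc1a* and overlapped WT, at 4.00, 2.92 and 3.19 CPM (log2 fold change -0.32, SE 0.31, adjusted p = 0.7714). *MtFULa* also overlapped, at 0.217, 0.613 and 0.491 CPM in *Mtsoc1a* and 0.174, 1.26 and 0.425 CPM in WT. Its log2 fold change of -0.48 (SE 0.69, adjusted p = 0.8616) became 0.55 without WT replicate 2. That library was the lowest of the WT apices for 5 of the 6 genes and the highest for *MtFULa*.

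The mutants were also set against each other. All 3 *FUL*-like genes and *MtAP1b* rose in the triple mutant relative to the single mutant. Thus 4 of 6 genes were called, all higher, where 9.81% of transcripts were called (3.04% higher). *MtFULc* and *MtAP1b* among them passed the filter on low counts only with WT apices in the fit. This comparison shares its libraries with the 2 above and is not independent of them.

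The log2 fold change of *MtFULb* was 3.79 (SE 0.33, edgeR adjusted p = 0.0004176). *MtFULc*, with 17 counts in all in the triple mutant and 0 in *Mtsoc1a*, was at least 13.1-fold higher (adjusted p = 0.01057). *MtAP1b*, with 49 counts (36 of them in triple mutant replicate 1) against 0, was at least 37.8-fold higher (adjusted p = 0.008662). Both genes were called in each of the 14 alternatives that gave them an estimate. They were tested here because WT apices, outside this comparison, were in the same fit. With only the groups compared in the fit, neither passed the filter on low counts. *MtFULa* rose by 2.37 (SE 0.71, adjusted p = 0.04283), a call lost when any 1 of the 6 libraries was left out (adjusted p 0.08033 to 0.1092). *MtLFY*, at 1.42, 2.30 and 1.05 CPM in the triple mutant against 3.12, 2.40 and 2.55 CPM in *Mtsoc1a*, did not overlap and was not called (log2 fold change -0.77, SE 0.32, adjusted p = 0.114). *MtAP1* had 1 count in the triple mutant and 0 in *Mtsoc1a*, so no fold is given.

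Separation without overlap was met by 4 genes upward and 1 downward, against 22.2% and 22.5% of all transcripts. The photosynthesis list was higher here too, at 904 to 1669 CPM in the triple mutant and 281 to 415 CPM in *Mtsoc1a*, with 20 of 24 called, and its part was not tested. Both mutants had at most 1 *MtAP1* count over 3 apex libraries, while *MtFULc* and *MtAP1b* were counted in every triple mutant library and in no *Mtsoc1a* apex library.

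**Figure D3:**
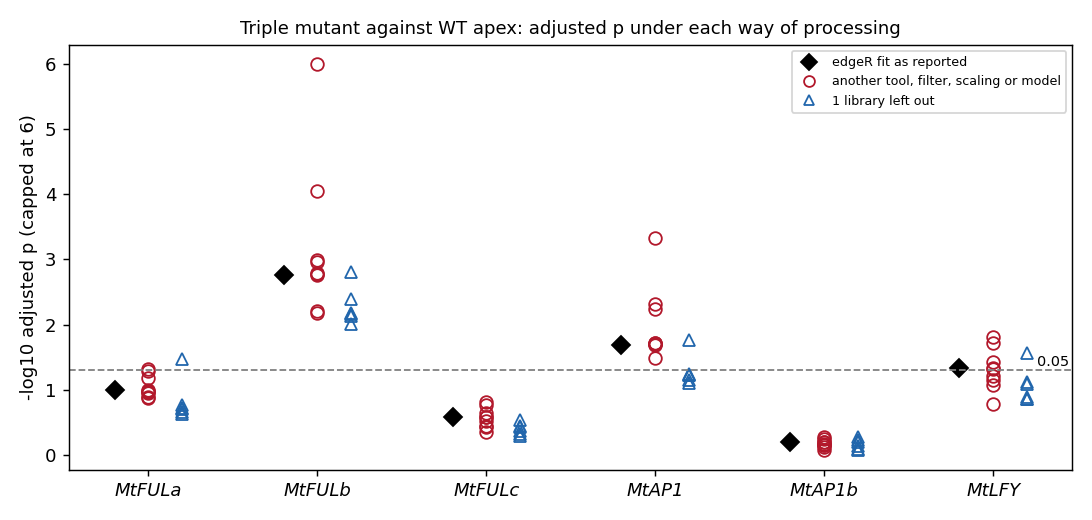
Adjusted p, as -log10 and capped at 6 (vertical axis), of each gene for the triple mutant over WT: the edgeR fit as reported (black diamonds), other tools, filters, scalings or models (red circles) and fits with 1 library left out (blue triangles). The dashed line is 0.05; all *MtFULb* points lie above it, while the *MtAP1* and *MtLFY* points fall on both sides.

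Other genes of the floral pathway were counted beside these loci in the triple mutant over WT, where 6.43% of all transcripts were called by edgeR, 31.0% had an unadjusted p under 0.05 and 6.36% were called by DESeq2. Of 10 tested transcripts of florigen and integrator genes (*SOC1*, *FT* and *FDa* loci), edgeR called 0, with 4 at an unadjusted p under 0.05 and 3 called by DESeq2 (2 higher, 1 lower). Their median log2 fold change was 1.11, beside -0.03 over all transcripts. The *MtSOC1* loci among them are those edited in the triple mutant. Of 5 tested transcripts of vegetative identity and repressor genes (*TFL1*, *BFT* and *SVP* loci), edgeR called 0, with 2 at an unadjusted p under 0.05 and 0 called by DESeq2 (median -0.34). Of 10 floral organ transcripts (median -0.29), 1 was called, a *SEP4* homolog (Medtr4g109810.1, log2 fold change 2.30, SE 0.66, adjusted p = 0.04567). *Mtsoc1a* over WT gave 0 edgeR calls in all of these lists, with 4, 2 and 2 transcripts at an unadjusted p under 0.05, beside 10.1% of all transcripts. DESeq2 called 3, 1 and 0 there, each of them lower, beside 0.998% of all transcripts. The median log2 fold changes were -1.32, -0.18 and -0.24, beside -0.02 over all transcripts. The florigen and integrator list holds both *MtSOC1a* transcripts (-4.24, SE 0.84, and -4.45, SE 0.82). Their locus is disrupted in *Mtsoc1a*, so its list values are not a separate result for the other genes.

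In the triple mutant over *Mtsoc1a*, edgeR called 9.81% of all transcripts, 3.04% higher, and the numbers of list calls were not tested between the comparisons. There 5 of 10 florigen and integrator transcripts were called higher (list median 2.72, beside -0.01 over all transcripts), 4 of them *MtSOC1* transcripts, whose loci are those edited or disrupted. The other was *MtFTb1* (log2 fold change 4.35, SE 1.05, edgeR adjusted p = 0.01921), a homolog of the florigen *FT*. *SVP/AGL24* (Medtr4g093970.1) was higher by 1.38 (SE 0.27, adjusted p = 0.007946). *MtTFL1c*, of the family that keeps shoot meristems indeterminate, fell by 1.52 (SE 0.47, adjusted p = 0.04812). Among the 10 floral organ transcripts (list median -0.55) 2 were called higher, *SEP4* and *CALd*, and 3 were lower, both *AP3b* transcripts and an *AGL6* homolog.

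Of the 5 MADS-box genes, 3 have a *SEPALLATA*-like gene close by in the order of locus numbers, genes whose Arabidopsis homologs act with *AP1* in floral organ identity. *MtFULb* and *SEP4* (Medtr4g109810) on chromosome 4 have 0 listed loci between them. The same holds for *MtFULc* and *SEP1/2b* (Medtr7g016600) on chromosome 7, and 1 listed locus separates *MtAP1b* from another *SEP4* homolog (Medtr5g046830) on chromosome 5. These pairs were looked up after the values had been seen, so their levels are given as a description.

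On chromosome 4, *SEP4* stood at 1.47, 1.53 and 3.04 CPM in the triple mutant, against 0.541, 0.244 and 0.425 CPM in WT apices, and so was higher in the libraries where *MtFULb* was higher. In leaf the pair parted. *SEP4* reached 25.4, 20.9 and 21.7 CPM in WT leaves, its highest level, where *MtFULb* stood at 5.51, 2.22 and 4.25 CPM.

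On chromosome 7, *SEP1/2b* had 0 counts in all *Mtsoc1a* apices, as did *MtFULc*, and 13, 0 and 11 counts in WT apices. Unlike *MtFULc* it was also at 0 in all triple mutant apices. Its WT apex mean of 0.170 CPM was near the level of 3 counts in a triple mutant library, 0.1495 to 0.1769 CPM. Depth therefore limits this contrast. On chromosome 5, counts of *SEP4* were 3, 2 and 0 in triple mutant apices, against 27, 20 and 27 in WT apices, where *MtAP1b* had 36, 7 and 6 counts and 28, 13 and 29 counts. In *Mtsoc1a* apices this *SEP4* had 0, 7 and 19 counts, where *MtAP1b* had 0 throughout. In leaf this *SEP4* had at most 2 counts a library and *MtAP1b* had 0.

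**Figure D4:**
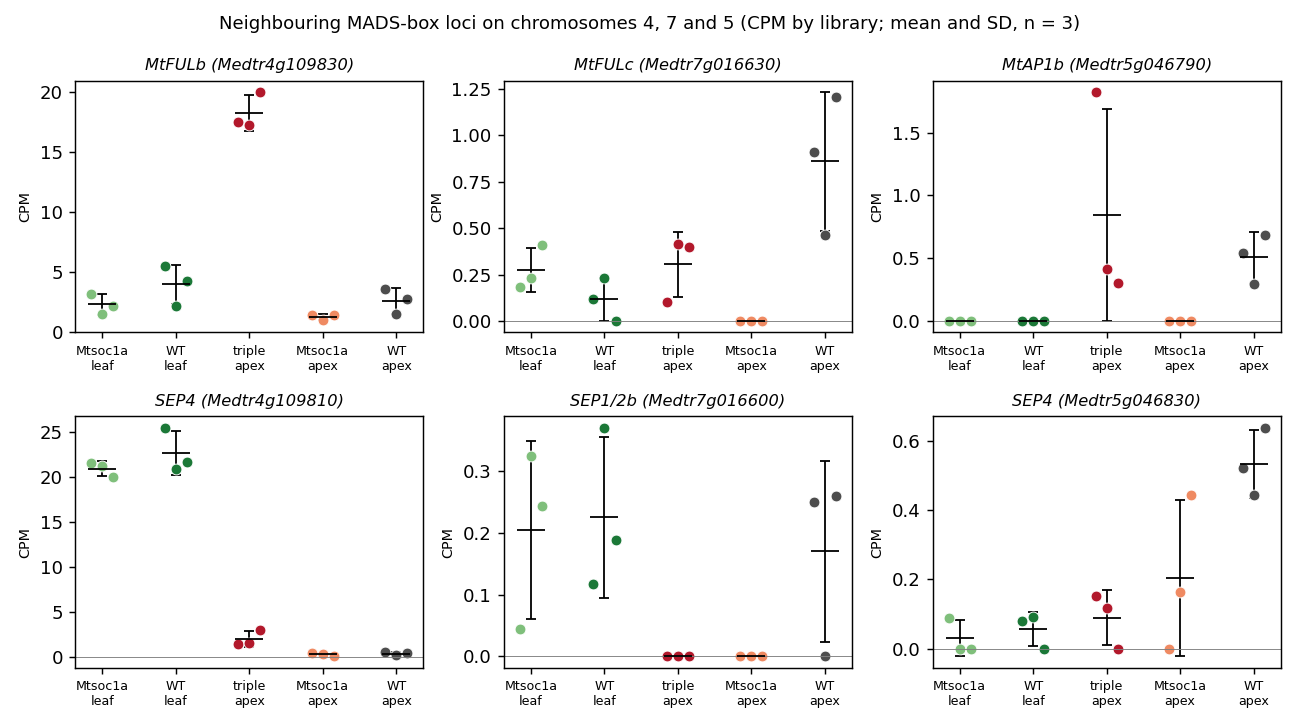
CPM (vertical axis) by library for the 3 neighbouring pairs, the *FUL*- or *AP1*-like gene above and its *SEP*-like neighbour below, with the mean and SD (n = 3) of each group. *MtFULb* was highest in triple mutant apices and its neighbour *SEP4* in leaves, at 20.9 to 25.4 CPM in WT.

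*MtLFY* and *MtAP1b* were absent from all 6 leaf libraries and present in WT apices, while *MtFULa*, *MtFULb* and *MtAP1* were measured in leaves at levels that overlapped those of WT apices. In WT, 2 of 6 genes were called, both lower in leaf, where 42.1% of the 26683 transcripts tested were called (19.4% higher, 22.7% lower). In *Mtsoc1a*, 4 were called, 3 higher and 1 lower in leaf, where 41.6% were called (19.5% higher, 22.0% lower). *MtFULc* among these 4 passed the filter on low counts through WT apices in the same fit. *MtLFY* and *MtAP1b*, absent from leaf, passed it only through apices. With calls this common, the numbers of calls set the genes little apart from other transcripts.

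The direction of leaf against apex depends on how libraries are scaled. The median log2 fold change of all transcripts was -0.13 in WT and -0.09 in *Mtsoc1a* with TMM, and -1.17 and -1.28 when libraries were scaled by their totals, an alternative chosen after seeing the data. Of all calls, 46.1% were higher in WT leaf with TMM and 18.3% with totals, and 47.0% and 16.0% in *Mtsoc1a*. Values below are TMM values, so they are relative to a median close to 0.

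*MtLFY* had 0 counts in all leaf libraries, against 144, 102 and 109 counts in *Mtsoc1a* apices and 207, 132 and 135 counts in WT apices. It was at least 61.5-fold lower in leaf than in apex in *Mtsoc1a* (edgeR adjusted p = 4.121e-05) and at least 77.3-fold lower in WT (adjusted p = 3.321e-05). The call was made in all 15 alternatives in each genotype, library totals included. The apex markers *WOX9* and *TFL1c* were at 0 in leaf in the same way.

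*MtAP1b* had 0 counts in all leaf libraries, and was at least 11.4-fold lower in WT leaf than in WT apices (adjusted p = 0.01937). The call was made in 10 of 15 alternatives. It was lost with DESeq2 (adjusted p = 0.155), with the replicate number as a block (0.1044) and when any 1 WT apex library was left out (0.05224 to 0.07368). *Mtsoc1a* leaf and apex were both at 0.

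*MtAP1* had 78, 64 and 90 counts in WT leaves, against 133, 17 and 140 counts in WT apices. Scaled, that was 3.43 ± 0.712 CPM in leaf and 2.08 ± 1.52 CPM in apex (SD, n = 3 each), which overlapped (log2 fold change 0.70, SE 0.77, edgeR adjusted p = 0.4785). By library totals the value was -0.34. In *Mtsoc1a* the same gene had 54, 15 and 61 counts in leaf and 0 in every apex library, at least 83.3-fold higher in leaf (adjusted p = 0.0002668), a call made in all 15 alternatives. *Mtsoc1a* plants thus had *MtAP1* reads in each leaf library and in no apex library.

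*MtFULc* had 3, 5 and 0 counts in WT leaves, against 47, 21 and 51 counts in WT apices (log2 fold change -2.87, SE 1.12, edgeR adjusted p = 0.0545). It missed the threshold here and was called in 5 of 15 alternatives, among them DESeq2, which called 33.6% of transcripts (0.01742), and library totals (-3.90, 0.01392). In *Mtsoc1a* it ran the other way, with 4, 5 and 10 counts in leaf and 0 in each apex library, at least 12.2-fold higher in leaf (adjusted p = 0.004809). It was tested there because WT apices, outside this comparison, carried it past the filter on low counts in the same fit. These leaf counts are low, and their depth limits what they can show.

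*MtFULb* stood at 5.51, 2.22 and 4.25 CPM in WT leaves and 3.63, 1.51 and 2.79 CPM in WT apices, which overlapped (log2 fold change 0.58, SE 0.45, adjusted p = 0.3027, and -0.46 by library totals). In *Mtsoc1a* it stood at 3.20, 1.54 and 2.24 CPM in leaf, against 1.45, 1.01 and 1.45 CPM in apex. That difference of 0.89 (SE 0.46) was not called (adjusted p = 0.1244) and was -0.29 by library totals. *MtFULa* stood at 1.30, 0.649 and 1.79 CPM in WT leaves and 0.174, 1.26 and 0.425 CPM in WT apices (1.03, SE 0.79, adjusted p = 0.2953, and -0.017 by library totals). In *Mtsoc1a* leaf it was higher than in apex by 2.33 (SE 0.82, adjusted p = 0.03165), a call lost with library totals (1.13, adjusted p = 0.2367) and in 5 of the 6 fits that left out 1 library of these groups (0.05247 to 0.1425).

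**Figure D5:**
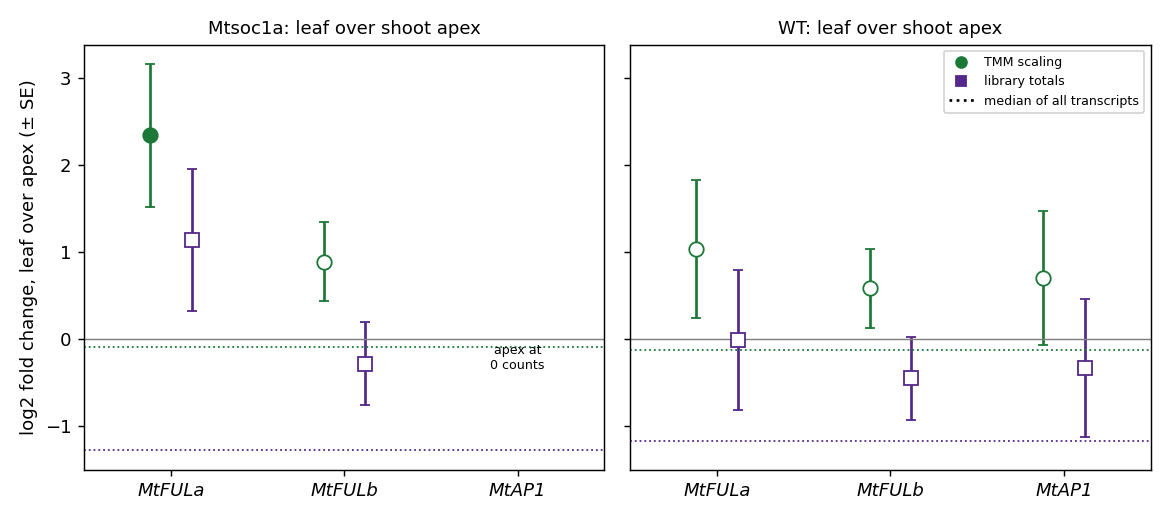
Log2 fold change of leaf over shoot apex with SE (vertical axis) for *MtFULa*, *MtFULb* and *MtAP1* in WT, and for *MtFULa* and *MtFULb* in *Mtsoc1a*. *MtAP1* had 0 counts in *Mtsoc1a* apices and is not drawn there. Values are under TMM (green circles) and library totals (purple squares). Filled symbols were called and dotted lines mark the median of all transcripts. In WT all 3 genes changed sign between the scalings, lying at 0.58 to 1.03 under TMM and at -0.46 to -0.017 under totals.

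The leaf libraries also carried floral organ transcripts. The summed level of 15 floral organ loci spanned 73.6 to 82.6 CPM in *Mtsoc1a* leaves and 70.8 to 84.8 CPM in WT leaves, against 7.46 to 8.01 CPM in *Mtsoc1a* apices and 3.92 to 7.01 CPM in WT apices. In WT leaf, 9 of 13 tested transcripts were called higher than in apex and 1 lower. *AGa*, a carpel and stamen identity gene, stood at 12.7 ± 1.47 CPM in WT leaves and 0.0801 ± 0.101 CPM in WT apices (SD, n = 3 each). Its log2 fold change was 7.17 (SE 1.00, edgeR adjusted p = 0.0001044). *PI*, which acts with *AP3* in petals and stamens, had at most 1 count in any leaf library. The *AP3* transcripts went the other way. *AP3a* stood at a mean of 7.87 CPM in WT leaves and 0.300 CPM in WT apices (log2 fold change 4.70, SE 0.53, edgeR adjusted p = 1.978e-05). Both *AP3b* transcripts were also called higher in WT leaf (3.10, SE 0.26, and 3.48, SE 0.46). The photosynthesis list stood at 7570 to 9788 CPM in *Mtsoc1a* leaves and 4563 to 5250 CPM in WT leaves, against 281 to 415 CPM and 240 to 396 CPM in the apices of the same genotypes. The part of the floral organ transcripts in the leaf levels of *MtAP1* and the *FUL*-like genes was not tested.

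None of the 3 genes tested in leaf differed between genotypes by the test. edgeR called 0 of 3, where 0.05002% of the 21993 transcripts tested were called. Also 0 passed at an unadjusted p under 0.05, beside 9.19% of all transcripts, and DESeq2 called 0, beside 0.692%. *MtAP1* stood at 2.43, 0.698 and 2.48 CPM in *Mtsoc1a* leaves, against 3.07, 2.97 and 4.25 CPM in WT leaves. The groups did not overlap (log2 fold change -0.86, SE 0.52, adjusted p = 0.7159), a pattern met by 8.35% of transcripts. *MtFULb* (-0.76, SE 0.45, adjusted p = 0.694) and *MtFULa* (0.79, SE 0.65, adjusted p = 0.8054) overlapped. *MtFULc* was too low to be tested, and *MtAP1b* and *MtLFY* were at 0 in both groups.

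The effect of the insertion in leaf minus that in apex was tested as an interaction. edgeR called 0 of 4 genes that gave an estimate, where 0.0337% of transcripts were called. At an unadjusted p under 0.05, 2 genes passed in edgeR, beside 8.01% of all transcripts. These were *MtFULc* (edgeR adjusted p = 0.2342) and *MtAP1* (adjusted p = 0.1632). DESeq2 called both (adjusted p = 0.0008445 and 0.0002797), where it called 1.06% of transcripts. The interaction was 1.30 (SE 1.12, adjusted p = 0.804) for *MtFULa* and 0.31 (SE 0.64, adjusted p = 0.9561) for *MtFULb*. A tissue difference in the effect on *MtAP1* and *MtFULc* was thus called by 1 of the 2 tools. In edgeR, *MtFULc* passed the filter on low counts through WT apices.

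Likeness was measured as Pearson's r of log2 CPM over the 15 libraries, among 27339 transcripts of other loci, and is a description, since the points share groups and scaling. *MtLFY* was followed closely by Medtr1g041870.1 and Medtr5g020230.1 (r = 0.996 each), both at 0 in all leaf libraries, as was *MtLFY*. For *MtAP1b* the nearest was Medtr2g045490.5 (0.968) and for *MtFULb* Medtr2g066700.1 (0.933). Medtr2g045490.5 was at 0 in *Mtsoc1a* apices and in all leaves, as was *MtAP1b*. Shared zeros thus weigh on the values of *MtLFY* and *MtAP1b*. Likeness was weaker for *MtAP1* (Medtr8g044120.1, 0.902), *MtFULa* (Medtr4g051380.1, 0.857) and *MtFULc* (Medtr7g066710.1, 0.801). Among the genes themselves r was at most 0.608, for *MtFULb* and *MtAP1b*, and the lowest was -0.622, for *MtAP1* and *MtLFY*. No member was therefore close to another over these 15 libraries.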

How the data were processed

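RNA-seq of 15 strand-specific, polyA-enriched libraries was used. The authors trimmed the reads, quantified transcripts of the Mt4.0v2 annotation by Salmon (version 0.8.2) and used DESeq2 (version 1.24.0) for their own tests. The deposited table holds these estimated counts, not normalized, for each library. The deposited TPM table holds the authors' mean for each group, and *Mtsoc1a* apex replicate 3 did not enter it; the same replicate alone has fractional counts, in 17.3% of all listed transcripts. Salmon divides reads shared by paralogs or isoforms, so low values of close paralogs are uncertain.

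Counts were rounded to whole numbers and tested in R 4.3.3 with edgeR 4.0.16 (quasi-likelihood, TMM, filter at a minimum count of 10). Alternatives were DESeq2 1.42.0, its size factors, library totals, counts summed to genes, no fold threshold, no filter on low counts, a replicate block, other sets of libraries in the fit and each library left out in turn. The 9 apex libraries, the 6 leaf libraries and the 12 libraries of 15-day-old plants each had a fit. Library totals of 13224488 to 38896407 limit precision for genes of few counts. Groups at 0 were given a floor of 3 counts. Folds given as at least a value set this floor against the summed counts of the other group. They leave out the spread between libraries.

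All 7 transcripts of the 6 loci were named; other list genes were named only where called or next to a member, and the transcripts of highest r were named for each member. The members and lists were chosen with earlier results of these data known. Samples were not paired by replicate number in the fits as reported. Correlations of same-numbered libraries were -0.0907 to 0.144, and those of different-numbered libraries were -0.171 to 0.12. Between *Mtsoc1a* and WT leaves, same-numbered pairs stood at 0.144, 0.135 and -0.0424, and different-numbered pairs at -0.171 to 0.0598. Whether libraries of the same number belong together was not tested. Of 6 member loci, 0 matched the reference gene table, so neither coordinates nor gene sequences are given.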

Additional observations from a re-analysis of the deposited data

How the results depend on the processing

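In every alternative that gave them an estimate, *MtFULb* kept its call in the triple mutant over WT and over *Mtsoc1a*, *MtFULc* and *MtAP1b* in the triple mutant over *Mtsoc1a*, *MtLFY* in leaf over apex in both genotypes, and *MtAP1* and *MtFULc* in *Mtsoc1a* leaf over apex. For *MtFULc* in *Mtsoc1a* leaf over apex, the filter on low counts was passed through WT apices, outside that comparison. The count of called genes moved in several comparisons. In *Mtsoc1a* over WT apices it was 0, and 3 with DESeq2 and 2 with counts summed to genes. In the interaction it was 0, and 2 with DESeq2. In the triple mutant over *Mtsoc1a* it was 4, and 2 with only the groups compared in the fit, where *MtFULc* and *MtAP1b* did not pass the filter. With 1 library left out it was 1 to 3 in the triple mutant over WT, against 3, and 1 to 2 in WT leaf over apex, against 2. It was 3 to 4 in the triple mutant over *Mtsoc1a* and in *Mtsoc1a* leaf over apex, against 4 in each.

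The labels tie replicate numbers to no shared harvest, and a fit with the replicate number as a block called 2 genes in the triple mutant over WT, against 3, and 1 in WT leaf over apex, against 2; the number of calls was the same in the other comparisons.

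Signs turned for values that were not called. *MtAP1b* in the triple mutant over WT was -0.51 without triple mutant replicate 1 (-0.51 to 1.13 over the libraries left out), and *MtFULa* in *Mtsoc1a* over WT was 0.55 without WT replicate 2 (-0.92 to 0.55). The interaction of *MtFULb* was -0.053 without *Mtsoc1a* leaf replicate 1 and -0.040 without WT leaf replicate 2 (-0.053 to 0.61). With library totals, chosen after seeing the data, *MtFULa*, *MtFULb* and *MtAP1* in WT leaf over apex were -0.017, -0.46 and -0.34, and *MtFULb* in *Mtsoc1a* leaf over apex was -0.29; the leaf libraries have TMM factors of 0.602 to 0.681, against 1.34 to 1.40 in apices of the same age. The causes of the other changes were not tested. Depth limits *MtFULc*, *MtAP1b* and *MtAP1*, whose calls rest on groups with few counts or none.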
